A study of Homo sapiens with 12 samples.

Results

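The canonical target genes of the aryl hydrocarbon receptor (AHR) were followed here in breast cancer cells with and without the receptor. They were 6 named genes out of the 31720 in the table, namely CYP1A1 (ENSG00000140465_at), CYP1A2 (ENSG00000140505_at), CYP1B1 (ENSG00000138061_at), TIPARP (ENSG00000163659_at), ALDH3A1 (ENSG00000108602_at) and NQO1 (ENSG00000181019_at). They were taken by ID as textbook AHR targets, with earlier results of these data known, and all 6 were measured on every array. RNA was profiled on 12 Affymetrix whole human genome arrays, 3 in each of 4 groups. The groups were AHR knockout SUM149 cells, Cas9 control SUM149 cells, AHR knockout MDA-MB-231 cells and Cas9 control MDA-MB-231 cells. SUM149 is a triple negative inflammatory breast cancer line and MDA-MB-231 a triple negative line with mesenchymal features. All 4 groups had been transduced with the Cas9 lentivirus and selected with puromycin, the controls carried no guide RNA, and no added AHR ligand is named in the labels. The lines were grown in different media, so a difference between them cannot be told apart from one of medium.

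The AHR is a ligand-activated transcription factor that waits in the cytoplasm with chaperones. Once a ligand binds, it enters the nucleus, pairs with ARNT and binds response elements with the core GCGTG near its target genes. The cytochrome P450 enzymes of the CYP1 family are the best known of these targets and break down many AHR ligands, and TIPARP feeds back on the receptor, so several targets limit the signal that induces them. In tumor cells with a constant supply of endogenous ligand, such targets can be transcribed without any added compound.

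Knockout was made with a pair of guides against the first exon of AHR, on chromosome 7, shown because within a line they set the designed difference between knockout and control cells:
AHR guide 1: cctacgccagtcgcaagcgg
AHR guide 2: ccgagcgcgtcctcatcgcg
After transduction the cells were plated at serial dilution, and the number of clones behind each knockout line is not stated. The knockout and control cells of a line were derived separately, and what arose in that derivation cannot be told apart from the missing receptor. The AHR transcript, the receptor's partners and the marker genes of each line could not be read out, because the 31720 IDs are not paired with names in the tables used here (0 were named) beyond the 6 genes above. The arrays were described as biological replicates without saying whether they came from separate cultures, so p-values measure the spread between these arrays. Replicate arrays were close, with a median SD per gene of 0.108 to 0.115 (log2) in the 4 groups.

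The promoters of 4 of the 6 genes could be set beside the array values. These windows are from RefSeq (GRCh38.p14), each with 250 bases before and 50 after an annotated start, written 5′ to 3′ on the gene's own strand. Capitals mark the core GCGTG, or CACGC where it lies on the other strand. CYP1A1 and CYP1A2 are neighbours on chromosome 15 that point away from each other. CYP1A1 was called lower in both knockout lines and CYP1A2 in neither, and their effects were not tested against each other. TIPARP and NQO1 are the other 2 genes with a window, and both were lower in at least 1 knockout line. The CYP1A1 window is chr15:74725479-74725778 on the minus strand, the CYP1A2 window chr15:74748595-74748894 on the plus strand, the TIPARP window chr3:156674340-156674639 on the plus strand and the NQO1 window chr16:69726511-69726810 on the minus strand.
CYP1A1: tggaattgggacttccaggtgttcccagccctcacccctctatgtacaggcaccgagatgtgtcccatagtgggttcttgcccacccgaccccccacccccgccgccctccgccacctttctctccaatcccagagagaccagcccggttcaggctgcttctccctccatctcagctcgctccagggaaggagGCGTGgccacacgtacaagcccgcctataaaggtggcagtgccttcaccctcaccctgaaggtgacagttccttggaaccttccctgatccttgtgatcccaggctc
CYP1A2: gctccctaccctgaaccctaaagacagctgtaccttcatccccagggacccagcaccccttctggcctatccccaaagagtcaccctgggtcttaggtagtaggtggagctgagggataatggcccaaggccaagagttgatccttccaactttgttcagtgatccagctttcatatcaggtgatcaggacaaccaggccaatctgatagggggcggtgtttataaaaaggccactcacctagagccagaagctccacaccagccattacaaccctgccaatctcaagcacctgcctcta
TIPARP: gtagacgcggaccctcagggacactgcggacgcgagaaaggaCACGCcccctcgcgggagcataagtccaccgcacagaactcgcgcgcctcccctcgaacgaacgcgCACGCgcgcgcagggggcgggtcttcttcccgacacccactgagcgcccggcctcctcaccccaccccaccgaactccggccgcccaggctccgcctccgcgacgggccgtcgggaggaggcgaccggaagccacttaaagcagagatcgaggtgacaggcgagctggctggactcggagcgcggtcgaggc
NQO1: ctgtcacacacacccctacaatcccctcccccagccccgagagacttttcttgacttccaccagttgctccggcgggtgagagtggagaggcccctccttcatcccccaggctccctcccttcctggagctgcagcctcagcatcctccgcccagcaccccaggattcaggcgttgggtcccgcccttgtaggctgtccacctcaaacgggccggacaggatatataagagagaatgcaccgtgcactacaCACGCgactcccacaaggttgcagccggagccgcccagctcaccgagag
The CYP1A1 window held 1 core match, at -57 to -53 from the start, upstream of the letters TATAAA at -32 to -27. The CYP1A2 window held 0 core matches and 2 overlapping matches to TATAAA between -31 and -24, 1 on each strand. TIPARP has 3 annotated starts, and the printed window, that of the most upstream start, held 2 core matches, at -208 to -204 and -142 to -138, while the other 2 windows held 0. In NQO1 the only match, at 2 to 6, lay just after the start and extended to the longer form TNGCGTG at 2 to 8, which the other windows did not hold. The core, searched on both strands, was in 36.5% of all 35116 promoter windows of this length, and 12.7% held at least 2. TNGCGTG was in 5.51% and TATAAA in 11.5%. The letters TGACNNNGC, the core of the element bound by NRF2 (the regulator of antioxidant genes), were in 13.3% of all windows and in 0 of the 6 windows of these genes. A match of letters is a description of the window and not a measured binding site. Sequence farther from the start was not searched, so 0 matches in a window does not show that a gene lacks the element. RefSeq windows for the other 2 genes, CYP1B1 and ALDH3A1, were not matched by symbol and were not used here.

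**Figure D1:**
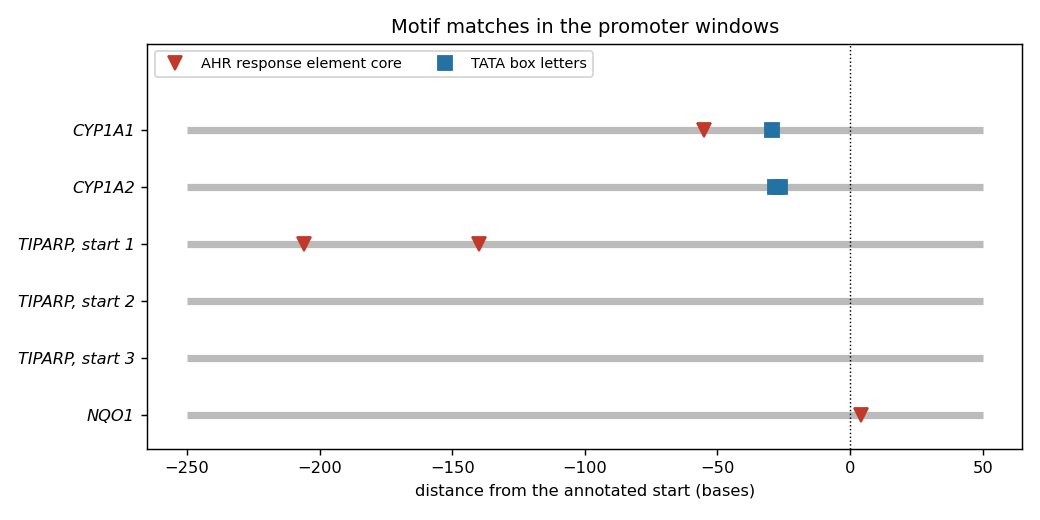
Promoter windows of 4 AHR target genes, drawn by distance in bases from the annotated start (dotted line). Red triangles mark the core of the AHR response element and blue squares the TATA box letters. The core appears once in CYP1A1 and NQO1, at 2 places in the most upstream TIPARP window and at 0 in CYP1A2.

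In AHR knockout cells of both lines, 3 of the 6 genes were lower, namely CYP1B1, CYP1A1 and TIPARP. Of these, the CYP1A1 call within a line depended on single arrays. ALDH3A1 was called lower in MDA-MB-231 and not in SUM149, and NQO1 in SUM149 and not in MDA-MB-231. For both genes the difference between the lines passed a test of its own. CYP1A2 did not pass the test in either line. A gene was called where the p-value of limma, after Benjamini-Hochberg adjustment over the whole table, was at most 0.05. Each array holds RNA from many cells, so fewer expressing cells and less RNA per cell cannot be told apart.

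Read against all genes, 4 of the 6 were called lower in SUM149 knockout cells, where 8.23% of all genes were called lower and 8.59% higher. In MDA-MB-231 knockout cells 4 of the 6 were called lower, where 2.19% of all genes were called lower and 1.73% higher. With 1 knockout effect fitted for both lines, 3 of the 6 were called lower, against 2.12% lower and 1.66% higher among all genes. Of all genes, 0.631% were called lower in both lines, as were 3 of these 6. In these fits with all 12 arrays, 0 of the 6 were called higher. The median log2 fold change of the 6 genes was -0.61 in SUM149, where that of all genes was 0.014, and -0.61 in MDA-MB-231, where that of all genes was 0.0015. Every SUM149 knockout array lay below every SUM149 control array for 4 of the 6, as for 15.1% of all genes. Every MDA-MB-231 knockout array lay below every MDA-MB-231 control array for 4 of the 6, as for 10.9% of all genes. This held in both lines for 3 of the 6, and for 2.64% of all genes. Because the 6 genes were chosen with earlier results of these data known, these counts describe them and are not an independent test.

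CYP1B1, a monooxygenase that hydroxylates estradiol and polycyclic aromatic hydrocarbons, had the largest fall of all 31720 genes when both lines were fitted together. Its log2 level was 4.44, 4.24 and 4.65 on the SUM149 knockout arrays, against 7.88, 7.90 and 7.96 on the SUM149 control arrays. In MDA-MB-231 it was 4.26, 3.91 and 3.98 on the knockout arrays, against 7.05, 7.08 and 7.14 on the control arrays. The lowest control array lay above the highest knockout array by far more than the spread of either group. The log2 fold change was -3.47 (standard error 0.11) in SUM149, an 11.1-fold lower level, with an adjusted p of 8.37e-09 from limma. It was -3.04 (standard error 0.11) in MDA-MB-231, an 8.22-fold lower level, with an adjusted p of 1.53e-07. By size of fall it ranked 5 of 31720 genes in SUM149 and 2 in MDA-MB-231, and 0 other genes fell as far in both lines. Without 1 array the log2 fold change ran from -3.57 to -3.37 in SUM149 and from -3.15 to -2.97 in MDA-MB-231. The knockout levels still lay above the median of all genes on the arrays, which ran from 3.62 to 3.70, and whether they stood above background was not tested.

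The effect on CYP1B1 in SUM149 minus that in MDA-MB-231 was -0.43 (95% interval -0.77 to -0.09), which did not pass the test over all genes (adjusted p = 0.106 from limma). Without SUM149 knockout replicate 3 it did (-0.53, adjusted p = 0.04). SUM149 control cells held more CYP1B1 than MDA-MB-231 control cells, by a log2 difference of 0.83 or 1.78-fold (adjusted p = 8.3e-05). Among knockout cells, SUM149 was higher by 0.40 (adjusted p = 0.0141), although 1 array of each line overlapped. That call was lost without MDA-MB-231 knockout replicate 2 or 3 or SUM149 knockout replicate 3 (adjusted p = 0.0517 to 0.0607). The order of the groups was thus SUM149 control, MDA-MB-231 control, SUM149 knockout and MDA-MB-231 knockout, and only the last pair overlapped.

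CYP1A1, the closely related enzyme whose induction is the classic readout of AHR activity, was a dim signal, below the array medians of 3.62 to 3.70 in knockout cells and near or above them in control cells, and whether it stood above background was not tested. Its log2 level was 2.64, 3.40 and 3.20 on the SUM149 knockout arrays, against 4.03, 3.80 and 3.64 on the SUM149 control arrays. In MDA-MB-231 it was 3.14, 2.84 and 3.07 on the knockout arrays, against 3.68, 4.02 and 4.15 on the control arrays. Knockout and control arrays did not overlap in either line, but the SUM149 knockout arrays were spread widely (SD 0.39, n = 3). The log2 fold change was -0.74 (standard error 0.19, adjusted p = 0.0195 from limma) in SUM149 and -0.93 (standard error 0.19, adjusted p = 0.02) in MDA-MB-231. With both lines in 1 fit it was -0.84 (standard error 0.13, adjusted p = 0.00477), a 1.79-fold lower level. This across-line call was kept in each of the 12 fits without 1 array, where the fall ran from 0.75 to 0.92.

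Within a line the CYP1A1 call depended on single arrays. In SUM149 the adjusted p was 0.0798, 0.0511 and 0.0575 without control replicate 1, control replicate 2 or knockout replicate 1, and 0.0611 when the line was fitted on its own 6 arrays. In MDA-MB-231 it was 0.0734 and 0.0792 without control replicate 2 or 3 and 0.0797 and 0.0605 without knockout replicate 2 or 3. The knockout effect on CYP1A1 did not pass the test of a difference between the lines (0.19, 95% interval -0.40 to 0.79, adjusted p = 0.733). SUM149 minus MDA-MB-231 was 0.07 in knockout cells and -0.13 in control cells, and neither passed. Both neighbouring pairs in the order of its levels, the 2 control groups and the 2 knockout groups, overlapped.

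TIPARP, an ADP-ribosyltransferase that marks the AHR and dampens its signal, was bright in all groups and fell in both lines. Its log2 level was 8.14, 8.09 and 8.20 on the SUM149 knockout arrays, against 8.93, 9.04 and 9.04 on the SUM149 control arrays. It was 8.21, 8.25 and 8.29 on the MDA-MB-231 knockout arrays, against 8.72, 8.72 and 8.84 on the MDA-MB-231 control arrays. The replicate SD was at most 0.068 in any group, and the groups of a line did not overlap. The log2 fold change was -0.86 (standard error 0.06, adjusted p = 4.26e-06 from limma) in SUM149, a 1.81-fold lower level. It was -0.51 (standard error 0.06, adjusted p = 0.000916) in MDA-MB-231, a 1.42-fold lower level.

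The fall of TIPARP was larger in SUM149. The difference between the lines was -0.35 (95% interval -0.55 to -0.15, adjusted p = 0.0242 from limma). It went with a higher level in the SUM149 control cells than in the MDA-MB-231 control cells, by 0.24 (adjusted p = 0.0099), while in knockout cells SUM149 minus MDA-MB-231 was -0.11 (95% interval -0.25 to 0.03, adjusted p = 0.218). The difference in effect did not pass without SUM149 knockout replicate 2, SUM149 control replicate 2 or 3, MDA-MB-231 knockout replicate 2 or 3 or MDA-MB-231 control replicate 1 or 2, at an adjusted p of 0.0509 to 0.0589.

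**Figure D2:**
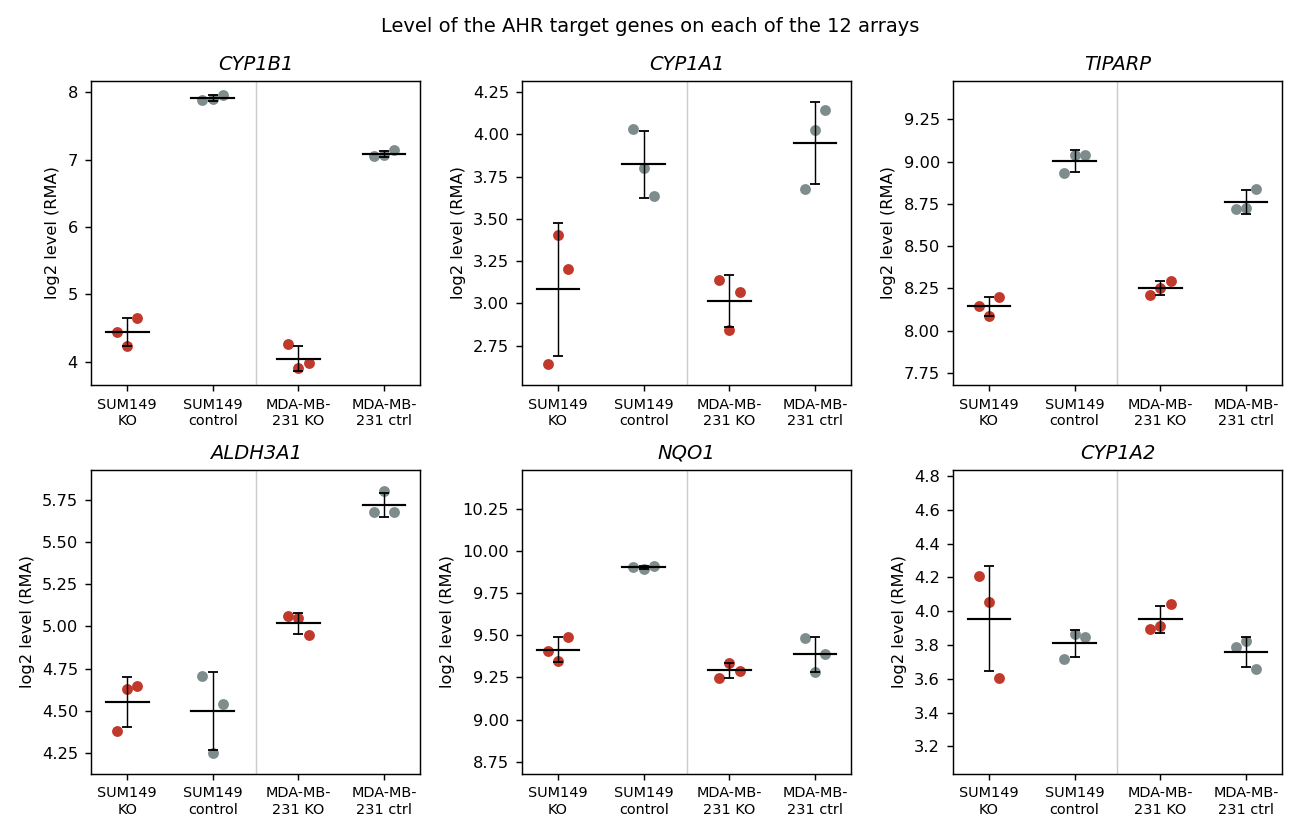
Log2 level of each AHR target gene on the 12 arrays, with AHR knockout in red and Cas9 control in grey for SUM149 and MDA-MB-231. Points are single arrays, bars the mean and SD of 3 arrays, and the log2 axes do not start at 0 and differ between panels. CYP1B1, CYP1A1 and TIPARP are lower in knockout cells of both lines, ALDH3A1 in MDA-MB-231 and NQO1 in SUM149.

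ALDH3A1, which oxidises aromatic and fatty aldehydes, fell in MDA-MB-231 and not detectably in SUM149. Its log2 level was 4.38, 4.63 and 4.65 on the SUM149 knockout arrays, against 4.71, 4.25 and 4.54 on the SUM149 control arrays, and these overlapped. It was 5.06, 5.05 and 4.95 on the MDA-MB-231 knockout arrays, against 5.68, 5.80 and 5.68 on the MDA-MB-231 control arrays, with no overlap. The log2 fold change was 0.05 (95% interval -0.20 to 0.30, adjusted p = 0.837 from limma) in SUM149. In MDA-MB-231 it was -0.70 (standard error 0.11, adjusted p = 0.00527), a 1.63-fold lower level. The effects differed by 0.75 (95% interval 0.40 to 1.10, adjusted p = 0.00932), and this difference passed in each of the 12 fits without 1 array. The call in MDA-MB-231 was also kept in each of those fits. With 1 effect for both lines the log2 fold change of -0.32 did not pass (adjusted p = 0.214).

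Of the 6 genes, ALDH3A1 had the largest difference between the control cells of the lines. SUM149 control cells had a 2.33-fold lower level than MDA-MB-231 control cells (log2 difference -1.22, adjusted p = 3.81e-06 from limma). After knockout, SUM149 cells were lower than MDA-MB-231 cells by a difference of -0.47 (95% interval -0.71 to -0.22, adjusted p = 0.00615). The SUM149 arrays, at 4.25 to 4.71, all lay below the MDA-MB-231 arrays, and whether they stood above background was not tested.

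NQO1, a quinone reductase that is also induced by NRF2, fell in SUM149 and not detectably in MDA-MB-231. Its log2 level was 9.41, 9.35 and 9.49 on the SUM149 knockout arrays, against 9.91, 9.89 and 9.91 on the SUM149 control arrays, with no overlap. It was 9.25, 9.34 and 9.29 on the MDA-MB-231 knockout arrays, against 9.48, 9.28 and 9.39 on the MDA-MB-231 control arrays, which overlapped. The log2 fold change was -0.49 (standard error 0.07, adjusted p = 0.000398 from limma) in SUM149, a 1.40-fold lower level. In MDA-MB-231 it was -0.09 (95% interval -0.24 to 0.05, adjusted p = 0.563). The effects differed by -0.39 (95% interval -0.60 to -0.18, adjusted p = 0.0188), and this passed in each of the 12 fits without 1 array.

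In control cells NQO1 was 1.43-fold higher in SUM149 than in MDA-MB-231 (log2 difference 0.52, adjusted p = 6.69e-05 from limma). In knockout cells the lines did not pass that test (0.12, 95% interval -0.02 to 0.27, adjusted p = 0.187). With 1 effect for both lines, the log2 fold change of -0.29 missed the threshold (adjusted p = 0.0559). It passed with the dimmest 33.3% of genes removed (0.0347), with robust moderation along a variance trend (0.0176) and without MDA-MB-231 control replicate 2 (0.0323).

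CYP1A2, the CYP1 enzyme best known from liver, was not called lower in either line. Its log2 level was 4.21, 4.05 and 3.61 on the SUM149 knockout arrays, against 3.72, 3.86 and 3.85 on the SUM149 control arrays. It was 3.90, 3.92 and 4.04 on the MDA-MB-231 knockout arrays, against 3.79, 3.82 and 3.66 on the MDA-MB-231 control arrays. Every MDA-MB-231 knockout array thus lay above every MDA-MB-231 control array, as 11.2% of all genes did, but the log2 fold change of 0.19 did not pass (95% interval -0.09 to 0.48, adjusted p = 0.532 from limma). In SUM149 it was 0.15 (95% interval -0.14 to 0.43, adjusted p = 0.545). Without SUM149 knockout replicate 3, the lowest array of its group, it was 0.32 and passed (adjusted p = 0.0342). The intervals of both lines leave out the falls estimated for CYP1A1, -0.74 in SUM149 and -0.93 in MDA-MB-231. Those falls have intervals of their own, and the effects of CYP1A1 and CYP1A2 were not tested against each other. The CYP1A2 levels, 3.61 to 4.21, were close to the array medians of 3.62 to 3.70, and whether they stood above background was not tested.

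**Figure D3:**
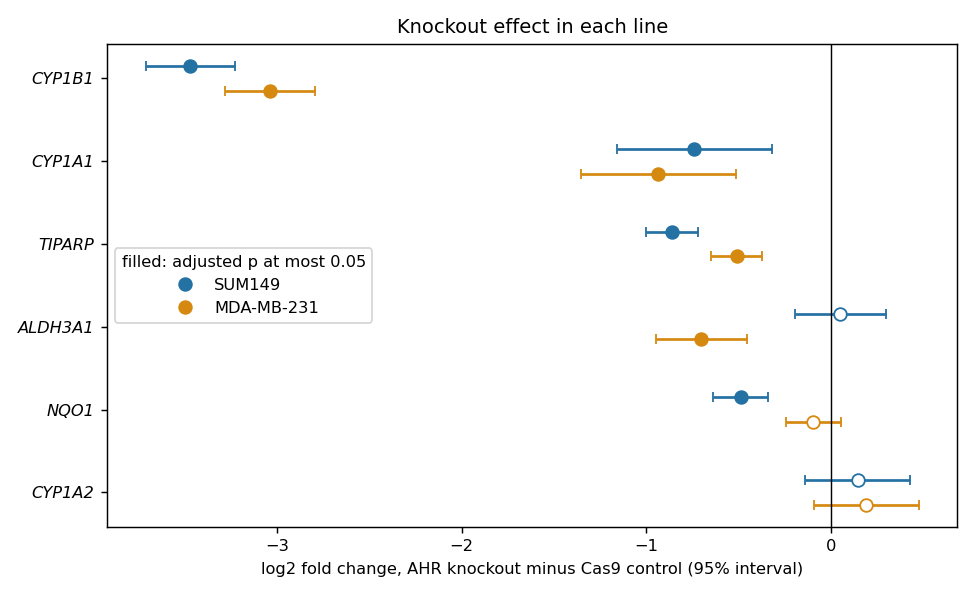
Log2 fold change of AHR knockout over Cas9 control for each target gene, in SUM149 (blue, above) and MDA-MB-231 (orange, below). Bars are 95% intervals from limma on 12 arrays and filled points have an adjusted p of at most 0.05. NQO1 passed the test in SUM149 only (-0.49) and ALDH3A1 in MDA-MB-231 only (-0.70).

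Of the 6 genes, 3 had a knockout effect that differed by line, namely TIPARP, ALDH3A1 and NQO1, where 13.2% of all genes were called by that contrast. In TIPARP and NQO1 the fall was larger in SUM149, and in ALDH3A1 it was larger in MDA-MB-231. In each case the line with the larger fall was the line with the higher control level. In control cells 3 of the 6 were higher in SUM149 than in MDA-MB-231 (CYP1B1, TIPARP and NQO1) and 1 was lower (ALDH3A1), where 17.3% of all genes were higher and 18.1% lower. In knockout cells 1 was higher (CYP1B1) and 1 lower (ALDH3A1), where 18.2% of all genes were higher and 19.0% lower. Because the effect in a line is measured from that line's control cells, a high control level and a large fall share the same arrays and are not independent readings.

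The number of other genes whose log2 fold change was at or below a gene's own in both lines was 0 for CYP1B1, 14 for CYP1A1, 38 for TIPARP, 92 for ALDH3A1, 442 for NQO1 and 21255 for CYP1A2. Likeness of pattern was taken as the root mean square distance between the centred means of 2 genes over the 4 groups, on the log2 scale. CYP1B1 had no near neighbour. The closest gene, ENSG00000197632_at, lay at 0.55, with log2 fold changes of -2.39 in SUM149 and -1.92 in MDA-MB-231. CYP1A1 was closest to ENSG00000176933_at, at 0.052, with -0.77 in SUM149 and -0.86 in MDA-MB-231. For TIPARP the closest gene lay at 0.049, for ALDH3A1 at 0.035, and for NQO1 at 0.0076. Among the 6 genes themselves the closest pair was CYP1A1 and TIPARP, at 0.16, and the farthest CYP1B1 and CYP1A2, at 1.74. A gene with small changes has many neighbours by this measure, so the distances are not comparable between genes with large and small effects. Gene names for the neighbours were not used here.

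**Figure D4:**
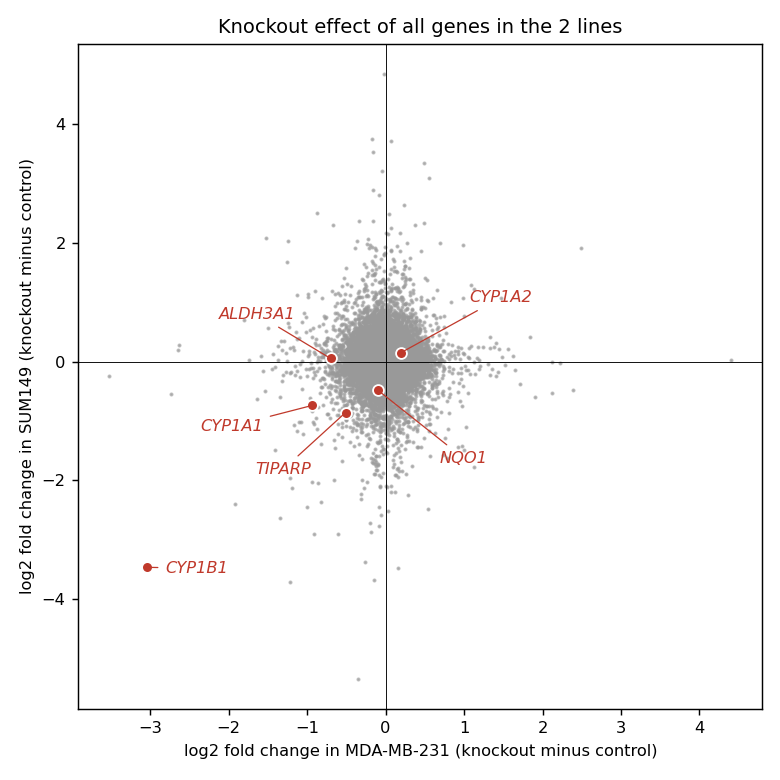
Log2 fold change of AHR knockout over Cas9 control for all 31720 genes (grey points), with MDA-MB-231 on the horizontal axis and SUM149 on the vertical axis. The 6 AHR target genes are in red. CYP1B1 stands apart at -3.47 in SUM149 and -3.04 in MDA-MB-231, and 0 other genes fell as far in both lines.

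Each gene has its own probes, so levels were not set against each other between genes. CYP1A1 and CYP1A2 share much of their coding sequence, and how far the probes of each avoid the other is not given in the sources used here.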

How the data were processed

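Total RNA was labelled with the WT Plus kit and hybridised to Affymetrix whole human genome arrays. The deposited values, 1 per Ensembl gene ID and array, are on the log2 scale. The submitters' processing notes name RMA, affy 1.48.0 and R 3.2.3. Because RMA gives the probe values of all arrays the same distribution, a change shared by most transcripts cannot be seen. The probe set definition and genome build are not given in the sources used here. Samples were grouped by their titles. The values were fitted as deposited, for all 31720 genes and with no filter, with limma 3.58.1 in R 4.3.3. A model with cell line and 1 knockout effect had 9 residual degrees of freedom. A model with 4 group means, used for each line, for the difference between the lines and for SUM149 against MDA-MB-231, had 8. Empirical Bayes moderation was applied, with Benjamini-Hochberg adjustment over the whole table, and genes were called at an adjusted p of at most 0.05. Intervals are 95% and unadjusted. Exact permutation of 3 arrays against 3 cannot go below a p of 0.1. The code was tested on simulated data. Alternatives were median-centred arrays, removal of the dimmest 33.3% of genes, a variance trend with robust moderation, stricter limits on p or fold, a replicate block, each line on its own arrays and 12 fits without 1 array. Tables and plots were made with pandas 2.3.3 and matplotlib 3.10.9 in Python 3.11.15.

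The 6 genes and all lists were chosen with earlier results of these data known. The 6 genes were named through the symbols given with their IDs, and every one was to be described. A further 8 lists (73 symbols: AHR complex, other AHR-regulated genes, NRF2 genes, relatives of the 6, and markers of epithelial, mesenchymal, blood or endothelial and liver cells) could not be counted, since the reference table named 0 IDs. The number of arrays limits the precision.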

Additional observations from a re-analysis of the deposited data

Results flagged for a closer look

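In 3 of the 6 target genes the knockout effect differed between SUM149 and MDA-MB-231 by limma's test of the difference itself. That test called 13.2% of all genes. For ALDH3A1 the effect in SUM149 minus that in MDA-MB-231 was 0.75 on the log2 scale, with a log2 fold change of 0.05 in SUM149 and -0.70 in MDA-MB-231. For NQO1 it was -0.39, with -0.49 in SUM149 and -0.09 in MDA-MB-231. For TIPARP it was -0.35, with -0.86 in SUM149 and -0.51 in MDA-MB-231. The TIPARP call was the least stable and was kept in 8 of 18 alternative settings. No explanation was tested for any of the 3 differences. Groups of 3 arrays are too small for the test of single outlying arrays.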

How the results depend on the processing

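The calls of CYP1B1 and TIPARP across the lines, of CYP1B1 in each line and of TIPARP in SUM149 were kept under all alternatives run. At a fold change of at least 1.5, TIPARP in MDA-MB-231 and NQO1 in SUM149 were no longer called, which the fold limit itself sets. Only ALDH3A1 (1 gene) still differed in effect between the lines at that fold change, at an adjusted p of 0.01 or less, or with a replicate block. CYP1A1 was lost in each line at an adjusted p of 0.01 or less. In control cells 2 genes differed between the lines at a fold change of at least 1.5. In knockout cells 1 did at the stricter p of 0.01, 0 did at the 1.5-fold limit, and 1 to 2 did in the fits without 1 array. The shares of all genes under these changed settings are not given here. In the main fit, 17.3% of all genes were higher in SUM149 and 18.1% lower in control cells. In knockout cells these shares were 18.2% and 19.0%. The genes called higher in SUM149 knockout cells than in SUM149 control cells numbered 0 to 1 without 1 array.

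When replicate numbers served as a replicate block, MDA-MB-231 had 2 genes called lower (CYP1B1 and TIPARP). The adjusted p of CYP1A1 was then 0.0565 across the lines, 0.0674 in SUM149 and 0.102 in MDA-MB-231, and that of ALDH3A1 in MDA-MB-231 was 0.0537. The titles number the arrays without saying whether equal numbers pair them. Correlations between the deviations of arrays with the same number were -0.017 to 0.035, so no shared replicate effect was seen. That does not settle whether such arrays were handled together. The block lies within a line, so it gave no value for SUM149 against MDA-MB-231. Signs turned only among effects that were not called. Without 1 array, ALDH3A1 in SUM149 ran from -0.072 to 0.157, the difference in the CYP1A2 effect from -0.171 to 0.130, and SUM149 minus MDA-MB-231 in knockout cells from -0.093 to 0.288 for CYP1A1 and from -0.120 to 0.180 for CYP1A2. Dim signals limit what can be said of CYP1A1 and CYP1A2.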
